A study of Mus musculus with 52 samples.

Results

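Very wide EpiLC enhancers are the enhancers of mouse epiblast-like cells (EpiLCs) that span over 10000 bp from start to end. Among 16576 deposited EpiLC enhancers, 228 met this rule, which uses width alone and no measured signal. Together they spanned 3.26 Mb, which was 8.28% of all bases in EpiLC enhancers. Their widths ran between 10050 and 38025 bp, with a median of 12475 bp, against a median of 1750 bp over all EpiLC enhancers.

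The study immunoprecipitated chromatin in 52 libraries, 43 from naive mouse embryonic stem cells (mESCs) and 9 from EpiLCs after 48 hours of differentiation, all on a C57BL6/129Sv background; the mESCs had no feeder cells and received LIF with GSK3 and MEK1 inhibitors (2i). Clones named cK27R, with arginine for lysine 27 in canonical H3 only, and pK27R, with it in every H3, SUZ12 knockout cells (SUZ12KO), and an H3.3 knockout with its add-back clones (pK27WT and pK27R) were set against control cells named ABE. Antibodies were against H3K27me2, H3K27me3, H3K27ac, RNA polymerase II, Med1 and H3.3, beside inputs. The tables analysed here hold coordinates only, so none of these libraries enters the values below, and the enhancers themselves were defined by other groups in their own cells and lifted over to mm10 by the authors. Each region set is 1 fixed list with no replicates, so shares and medians are given beside those of all EpiLC enhancers and no p-value was computed.

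Enhancers are stretches of DNA that bind transcription factors and co-activators such as p300 and raise transcription of genes nearby. Active enhancers carry H3K4me1 and H3K27ac, and long domains dense in such marks and in Mediator, known as super-enhancers, lie at genes that define a cell's identity. When naive mESCs become EpiLCs, a model of the epiblast just after implantation, OCT4 stays on, naive factors such as NANOG and ESRRB decline, and OTX2 and OCT4 move to other enhancers. A long interval in a list of enhancers can be 1 broad domain or several joined peaks, and the table does not say which.

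A composite OCT-SOX site, at which OCT4 and SOX2 bind side by side, was searched as TTGT, any base and then ATGCAAA on both strands of every region. It had 10 matches, in 10 of the 228 very wide enhancers, and 9 of them are shown so that sites inside and outside mESC enhancers can be compared. The name on each line is that of a gene at or nearest to the region. Each line runs 5′ to 3′ on the strand of the match, in GRCm38.p6 (mm10) letters, with the match in capitals. The mESC table falls into a first block of rows and the later rows, since its chromosome order restarts once, and each line names the part in which the mESC enhancer stood.
Nanog, chr6:122707402-122707437, minus strand, in an mESC enhancer of the first block: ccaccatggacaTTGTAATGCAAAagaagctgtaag
Lefty2, chr1:180888815-180888850, minus strand, in an mESC enhancer of the first block: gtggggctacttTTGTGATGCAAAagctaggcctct
Elovl6, chr3:129547802-129547837, minus strand, in an mESC enhancer of the first block: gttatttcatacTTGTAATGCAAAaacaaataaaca
Skil, chr3:31089545-31089580, minus strand, in an mESC enhancer of a later row: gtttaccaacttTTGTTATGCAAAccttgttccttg
Rest, chr5:77262327-77262362, minus strand, in an mESC enhancer of a later row: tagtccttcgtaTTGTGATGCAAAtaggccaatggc
Zfp64, chr2:168959555-168959590, minus strand, in an mESC enhancer of a later row: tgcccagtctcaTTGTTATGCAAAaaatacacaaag
Zfp281, chr1:136567651-136567686, minus strand, outside mESC enhancers: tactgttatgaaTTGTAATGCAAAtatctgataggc
Tmem253 and Zfp219, chr14:52016294-52016329, plus strand, outside mESC enhancers: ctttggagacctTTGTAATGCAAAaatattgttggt
Etl4, chr2:20724162-20724197, plus strand, outside mESC enhancers: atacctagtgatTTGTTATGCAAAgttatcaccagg
Over whole regions the motif stood at 0.00306 matches per kb in very wide enhancers, against 0.00259 over all EpiLC enhancers, and at 0.00303 against 0.00291 without repeat-masked bases. The 500 bp windows at the centres of the 228 regions had 0 matches, against 0.284% of such windows over all EpiLC enhancers, a share too low for so few windows to tell from 0. The Nanog match also lay inside the promoter entry of that gene, which made it the 1 promoter with the motif among 93 whose start site lay in a very wide enhancer, and 0.0333% of 27025 RefSeq promoter entries held it. A match is a run of letters, and binding was not measured here.

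The very wide enhancer that covered most transcription start sites (TSSs) lay at the Mir290 cluster, which encodes the most abundant microRNAs of naive mESCs. Several of its members share the seed AAGUGCU (bases 2 to 8), known for keeping the cell cycle of stem cells running. The mature sequences are RefSeq's, with the seed in capitals, and are grouped by seed.
mmu-miR-291a-3p: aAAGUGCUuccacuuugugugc
mmu-miR-294-3p: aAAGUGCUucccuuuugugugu
mmu-miR-295-3p: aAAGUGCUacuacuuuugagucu
mmu-miR-290a-5p: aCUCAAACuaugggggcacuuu
mmu-miR-292a-5p: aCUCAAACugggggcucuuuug
mmu-miR-293-5p: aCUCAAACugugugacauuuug
The region spanned chr7:3198341-3223901, a width of 25561 bp, and covered 10 TSSs, namely Mir290a, Mir290b, D7Ertd143e, Mir291a, Mir292, Mir292b, Mir291b, Mir293, Mir294 and Mir295. The mESC enhancer at this locus, chr7:3193004-3218182, shared 19842 bp with it and stopped before the first mature microRNA at position 3218638. All of the cluster's microRNAs lay inside the EpiLC region and outside the mESC one. In all, 6 very wide enhancers held 25 mature microRNAs of 15 genes. The others were Mir21a, Mir7671, Mir1192 and Mir6398, each in a region of its own, and Mir150 with Mir5121 in a single region.

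Most very wide EpiLC enhancers met an enhancer already listed in mESCs. By the rule of at least 1 bp in common, 174 of 228 (76.3%) did so, against 25.9% of all EpiLC enhancers. The first block of the mESC table has as many rows as the cited publication has super-enhancers, but the table does not name it. Enhancers of the first block were met by 66 very wide regions (28.9%), against 2.26% of all EpiLC enhancers. A further 108 (47.4%) met later rows only, against 23.6%, and 54 (23.7%) met none. The contact was nearly always with a single mESC enhancer, for 172 regions met exactly 1 and 2 regions met 2.

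Width by itself raises the chance of an overlap, so measures that depend less on it were set beside the counts. The centre of the region lay inside an mESC enhancer for 68 of 228 (29.8%), against 18.8% of all EpiLC enhancers. With a 500 bp window at the centre the share was 34.2%, against 21.9%. Of the bases in very wide enhancers, 22.2% lay inside mESC enhancers, against 13.8% over all EpiLC enhancers. For the first block alone it was 15.5% of bases against 3.46%. Counted per length the order was the opposite, with 53.9 overlaps with mESC enhancers per Mb of very wide enhancer, against 109 per Mb of all EpiLC enhancers.

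**Figure D1:**
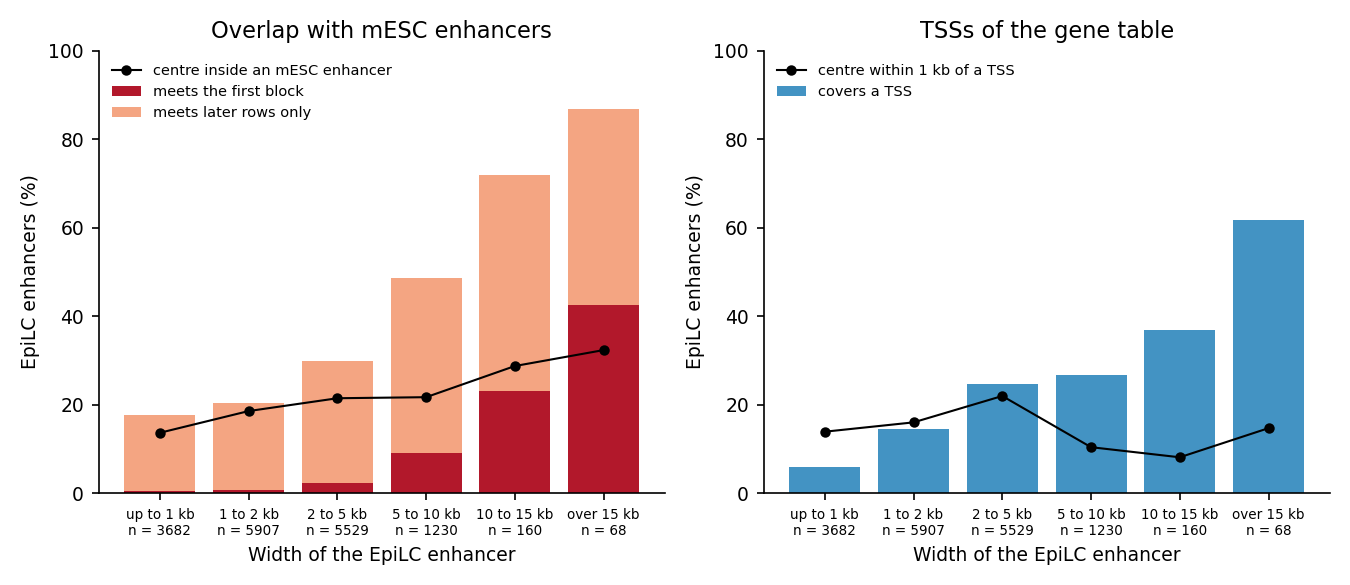
Shares of EpiLC enhancers in 6 classes of width. Left, bars give the share that met the first block or later rows only of the mESC table and the line the share centred inside an mESC enhancer; right, bars give the share that covered a TSS and the line the share centred within 1 kb of one. Any overlap climbed with width to 86.8% over 15 kb, while the centred share moved only between 13.7% and 32.4%.

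Both the share that met the first block and the share centred inside an mESC enhancer were higher in each wider class of EpiLC enhancer, on either side of the threshold of 10 kb. The share that met the first block was 0.462% up to 1 kb, 0.779% for 1 to 2 kb, 2.41% for 2 to 5 kb, 9.19% for 5 to 10 kb, 23.1% for 10 to 15 kb and 42.6% over 15 kb. The share centred inside an mESC enhancer was 13.7%, 18.6%, 21.5%, 21.7%, 28.8% and 32.4% in the same order. At the threshold, the narrowest very wide enhancers were at Rbpj (10050 bp, meeting the first block), within Chd9 (10050 bp, a later row) and at Bcar1 (10075 bp, no mESC enhancer). Left out at exactly 10000 bp were 4 regions, at Jarid2, at Zfp13 and Zscan10, within Fbxo22 and near Lrrc74a, each meeting a later row.

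The 66 very wide enhancers that met the first block did so over long stretches. Of the 66 pairs the mESC enhancer lay wholly inside the EpiLC region in 36, the EpiLC region was the wider in 50, and at least 50% of both was shared in 26. The median share of the EpiLC region inside mESC enhancers was 47.4% in this class. In the class that met later rows only the median was 8.49%, and 67 of 108 regions had under 10% in common. Over both classes, 101 of the 110 later-row mESC enhancers met lay wholly inside a very wide region, and the median width of the 110 was 956.5 bp. Among the 41 very wide enhancers with at least 50% of their length inside mESC enhancers, 32 belonged to the first class.

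**Figure D2:**
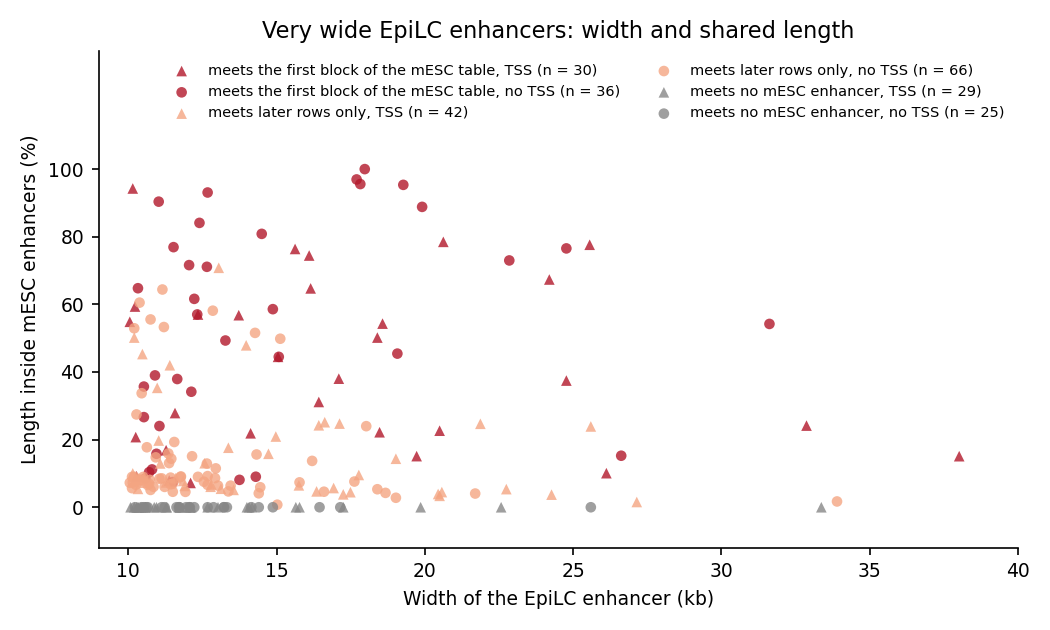
Width of each of the 228 very wide EpiLC enhancers in kb (horizontal) against the percent of its length inside mESC enhancers (vertical). Red marks the 66 that met the first block, orange the 108 that met later rows only and grey the 54 that met none; triangles cover a TSS and circles do not. Red points spread between 7.19% and 100%, and most orange points lie under 10%.

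The longest shared stretch after the Mir290 cluster, 18965 bp, was at chr2:32156252-32181026 in Prrc2b. Next was an intron of Pced1b at chr15:97367277-97386551, with 18377 bp. In an intron of Dlc1 the EpiLC region chr8:36587927-36605901 lay wholly inside an mESC enhancer, the 1 such case among the 66 pairs. The next stretches were near Mtcl1 (17686 bp), in Myo10 (17159 bp, inside an mESC enhancer of 50163 bp), in Etl4 (17145 bp), near Smarcad1 (17036 bp) and in Usp7, the gene of a deubiquitinase (16678 bp). The tenth in order was chr9:78357727-78381926, which covered the TSSs of Dppa5a, a marker of naive cells, and of Ooep, an oocyte gene, and held all 16299 bp of an mESC enhancer.

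Seen from the mESC side, 65 enhancers of the first block (28.1%) met a very wide EpiLC enhancer, 158 met narrower ones only and 8 met none. Of the 8563 later rows 110 (1.28%) met a very wide one. The first-block enhancers that met a very wide region had a median width of 8825 bp, close to the 8676.5 bp of those that met narrower ones only.

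The 10 longest regions differed in what they covered. At the top, chr11:69679302-69717326 (38025 bp) held the TSSs of Senp3, a SUMO protease gene, and of Tnfsf13 and Tnfsf12, which encode cytokines of the TNF family. The next was chr16:22385202-22419105 (33904 bp) in Etv5, an ETS factor gene downstream of FGF signalling, with no TSS of the authors' gene set inside. Its centre lay within 1 kb of a GENCODE TSS. Then came chr15:102385627-102419001 (33375 bp), which covered the TSS of Sp1, a general zinc-finger activator, and met no mESC enhancer. The others lay at Gm19705 and Platr22 (32875 bp), in Etl4 (31625 bp), at Tmprss12 (27150 bp), in Rbpms (26625 bp), in Macf1 at Mir6398 (26125 bp), in Pcmtd1 (25600 bp) and at Rbpms2 (25600 bp). Of these 10 regions 5 met the first block, 3 later rows only and 2 none.

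A TSS of the authors' gene set lay in 101 of the 228 very wide enhancers (44.3%), against 17.3% of all EpiLC enhancers, and at least 2 TSSs in 22 of them (9.65%), against 2.71%. The number per region was 0 in 127, 1 in 79, 2 in 16, 3 in 4, 9 in 1 and 10 in 1, which made 142 TSSs. Per region that was 0.623 TSSs, against 0.205 over all EpiLC enhancers, but per Mb it was 43.5, against 86.0. The very wide regions were also less often centred on a start site, with 23 of 228 (10.1%) centred within 1 kb of a TSS, against 17.0%. Whole protein-coding genes, 31 of them, lay inside 23 of the regions, a count that width itself raises and that was not made over all EpiLC enhancers.

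By class, TSSs lay in 30 of the 66 regions that met the first block, in 42 of the 108 that met later rows only and in 29 of the 54 that met none. These were 45.5%, 38.9% and 53.7%, against 18.1%, 8.92% and 19.96% of the same classes over all EpiLC enhancers. The order of the classes was the same over all EpiLC enhancers, so it is not particular to very wide ones. Of the 49 TSSs in the first class, 14 lay inside the mESC enhancer itself, among them Nanog, Fgf4, Dppa5a, Mybl2, Dusp1, Rbpj and Neat1. The other 35 lay in the EpiLC region and outside the listed mESC enhancer, among them Pou5f1, Otx2, Tdgf1, Utf1, Lefty2 and the Mir290 cluster. In the class of later rows 3 of 49 lay inside, at Dido1, Gid8 and Gm11729. Of the bases, 48.2% lay inside mESC enhancers in the first class and 14.4% in the class of later rows, and 10 of the 35 start sites outside belong to the Mir290 region alone. The genes named here were picked from the 2 lists after their positions were known.

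Around a single covered TSS the regions reached further downstream than upstream in 46 of 79 cases (58.2%). Among the 2420 EpiLC enhancers with 1 TSS the share was 54.8%. The downstream arm can run past the end of the gene, as at Nanog, which lay wholly inside its region. The median extent was 5.20 kb upstream and 8.04 kb downstream of the TSS in very wide enhancers, against 1.03 kb and 1.14 kb over all with 1 TSS. The spread was wide. The region at Rbpms2 had 2.18 kb upstream and 23.4 kb downstream, and that at Cdh1 0.723 kb and 21.2 kb. The opposite shape was that of Tmprss12, with 25.7 kb upstream and 1.49 kb downstream.

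**Figure D3:**
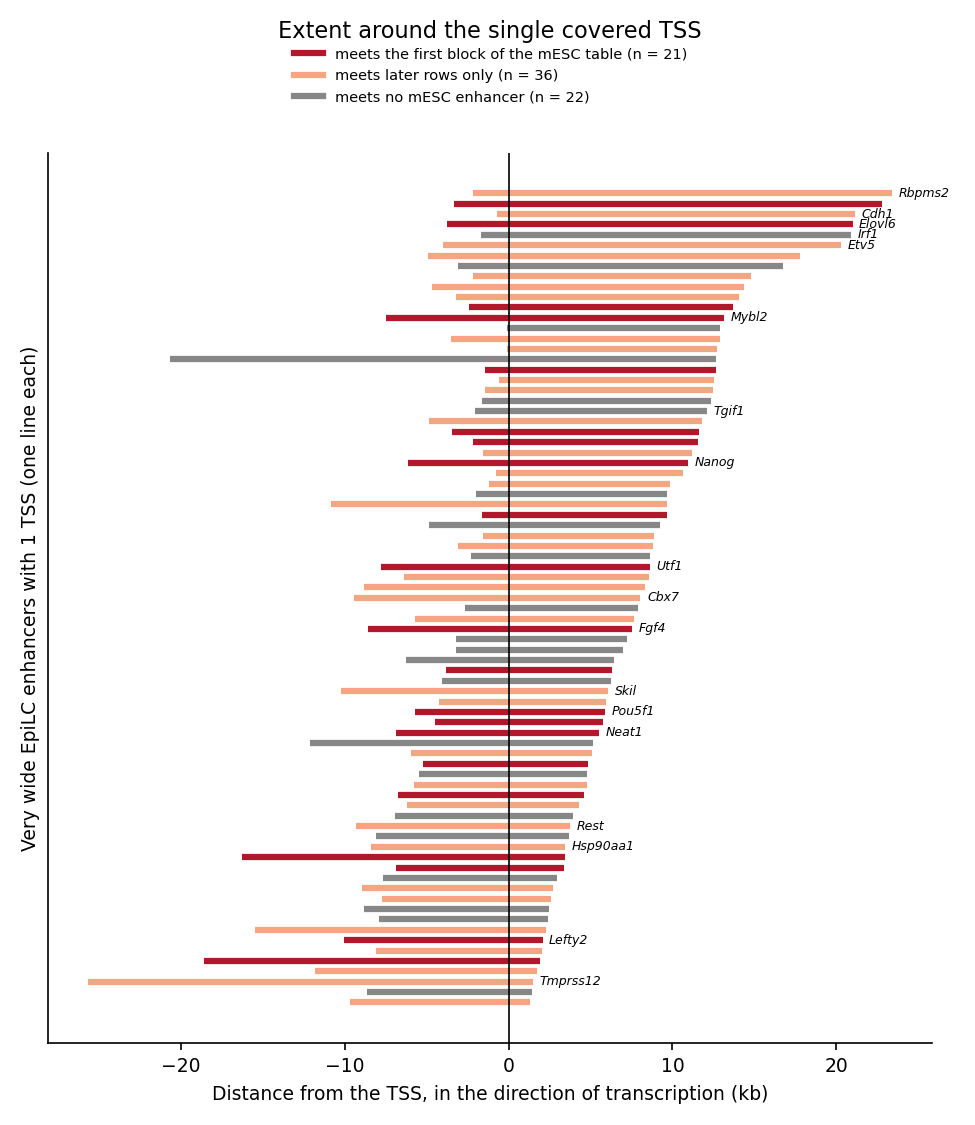
Extent of the 79 very wide EpiLC enhancers with exactly 1 TSS, 1 horizontal line each, in kb from that TSS in the direction of transcription and ordered by downstream reach; colours give the class of mESC enhancer met, and selected genes are named. In 46 of the 79 the downstream arm is the longer, up to 23.4 kb at Rbpms2.

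Several TSSs lay in 22 regions. After the Mir290 cluster, chr7:45118577-45130651 covered 9 TSSs, among them those of the ribosomal protein gene Rpl13a, of the small nucleolar RNA genes Snord32a, Snord33, Snord34 and Snord35a, which lie in its introns, and of Mir150 and Mir5121. It met no mESC enhancer. The 4 regions with 3 TSSs were the one at Senp3 and others at Eif4a2 (18475 bp, a translation initiation factor gene with Snord2 and Snora81), at Daxx (15775 bp, with Platr17 and BC051226) and at H3c3 (11275 bp). Of those with 2, Bcat2 with 0610005C13Rik (15650 bp) and Cbx1 with Gm11517 (15753 bp) come first by name. Since short RNA genes and their host genes overlap, the count of TSSs is not a count of independent promoters.

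The region at H3c3, chr13:23737727-23749001, covered a canonical H3 gene, of the kind mutated in the cK27R clones, together with H1f2, a linker histone gene, and H2bc3, an H2B gene. It met an mESC enhancer of a later row over 829 bp. The 250 bases upstream of H3c3 and of Rpl13a are shown because both starts lie inside very wide enhancers and differ in CpG content, with 6 and 24 CpGs in capitals. They are RefSeq GRCm38.p6 letters, 5′ to 3′ toward the start site, both from the minus strand.
H3c3, chr13:23745522-23745771: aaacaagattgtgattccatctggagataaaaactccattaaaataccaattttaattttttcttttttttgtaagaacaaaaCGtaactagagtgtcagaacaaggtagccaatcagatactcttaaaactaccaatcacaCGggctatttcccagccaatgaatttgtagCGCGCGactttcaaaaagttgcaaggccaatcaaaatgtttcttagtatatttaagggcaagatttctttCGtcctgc
Rpl13a, chr7:45128746-45128995: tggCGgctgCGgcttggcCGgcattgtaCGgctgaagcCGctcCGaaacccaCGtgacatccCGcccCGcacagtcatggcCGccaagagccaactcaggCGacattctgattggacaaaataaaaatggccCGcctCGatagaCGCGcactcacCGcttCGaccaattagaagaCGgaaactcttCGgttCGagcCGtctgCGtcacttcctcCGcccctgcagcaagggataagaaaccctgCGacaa
The RefSeq promoter entries run from 250 bases before the start to 50 after it, where H3c3 had 9 CpGs and Rpl13a 27. Over the 93 entries whose start site lay in a very wide enhancer the median was 17 CpGs and 59.3% GC. Over all 27025 entries it was 7 CpGs and 52.7% GC. Entries in EpiLC enhancers of any width were not counted, so the difference cannot be called particular to very wide enhancers.

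Several pluripotency genes were among those covered. Of all named genes 0.598% (142 of 23751) had a TSS in a very wide enhancer, and 14.2% in any EpiLC enhancer. Of the general pluripotency genes it was 5 of 15 in a very wide enhancer, with 14 of 15 in any. Among them were Cdh1, the gene of E-cadherin (21875 bp), Tdgf1, which encodes the Nodal co-receptor Cripto (18400 bp), Utf1 (16425 bp) and Pou5f1, which encodes OCT4 (11575 bp). The regions at Tdgf1, Utf1 and Pou5f1 met the first block, and that at Cdh1 met later rows only.

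Of the naive pluripotency genes 3 of 25 had a TSS in a very wide enhancer, and 9 in any EpiLC enhancer. They were Dppa5a (24200 bp), the homeodomain factor gene Nanog (17100 bp) and Fgf4, the main FGF ligand gene of these cells (16100 bp), and all 3 regions met the first block. At Nanog, chr6:122701352-122718451 had 38.0% of its length inside mESC enhancers, and at Fgf4, chr7:144852827-144868926 had 74.4%. A very wide enhancer of 14300 bp also lay within Esrrb, an orphan nuclear receptor gene, without covering its TSS; 0.980% of all named genes had an interval that overlapped a very wide enhancer, by TSS or elsewhere.

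Of the genes of the formative and primed epiblast 3 of 24 had a TSS covered, and 12 in any EpiLC enhancer. At Otx2, the homeodomain factor gene induced on exit from naive pluripotency, chr14:48651127-48669701 (18575 bp) held an entire mESC enhancer of the first block. At Lefty2, a secreted Nodal inhibitor gene, the region of 12100 bp reached 10.0 kb upstream and 2.07 kb downstream of the TSS. At Etv5 the second of 2 adjoining regions, chr16:22419302-22443576 (24275 bp), covered the TSS, and 3.73% of it lay inside an mESC enhancer. A region of 11125 bp lay within Dnmt3a, which encodes a de novo DNA methyltransferase, away from its TSS.

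Among signalling genes, 2 of 24 in the Nodal, BMP and Id list had a TSS covered, namely Skil (16350 bp, a later row) and Tgif1 (14175 bp, no mESC enhancer), which encode repressors of the SMAD pathway. Tdgf1 and Lefty2, which also act in Nodal signalling, are counted in the lists above. The FGF and ERK list, which leaves out Fgf4 and Etv5 as they are counted above, had 0 of 25 and the Wnt and TCF list 0 of 22, and at a share of 0.598% over all genes lists of this size need hold none. Any EpiLC enhancer covered 10 and 8 of them. Il17rd, an FGF feedback inhibitor gene, and Fzd7, a Wnt receptor gene, were the nearest genes within 50 kb of a very wide enhancer. Over all genes 0.770% were tied to one by this nearest-gene rule.

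Among chromatin genes, Polycomb had 2 of 22, namely Cbx7, a reader of methylated H3K27 (17492 bp, a later row), and Kdm2b, which brings a Polycomb complex to CpG islands (12125 bp, no mESC enhancer). Jarid2, a cofactor of PRC2, was the nearest gene to a region of 11764 bp and had its own TSS in one of the regions left out at exactly 10000 bp. The list of acetyltransferases, deacetylases and Mediator had 1 of 20, Kat2b (17125 bp), with Med13l and Ncoa3 as nearest genes to other regions. Of the H3.3 genes it was 1 of 10, the chaperone gene Daxx. DNA methylation had 0 of 12, with Tet1 as nearest gene to a region of 14875 bp that met the first block. Another region overlapped Apobec3 away from its TSS.

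Highly expressed and developmental genes were counted in the same way. Of the housekeeping genes 1 of 25 lay in a very wide enhancer, the chaperone gene Hsp90aa1 (11850 bp), although any EpiLC enhancer covered 24 of the 25. Of the ribosomal protein genes it was 2 of 85, with 68 in any, and of the cell cycle and Myc genes 0 of 21, with 13 in any. The neural regulators had 1 of 22, Rest, which encodes a repressor of neuronal genes (13050 bp, with 70.8% of its length inside mESC enhancers). The homeodomain developmental regulators (40 genes) and the mesoderm and endoderm regulators (25) had 0 TSSs covered by a very wide enhancer and 0 by any EpiLC enhancer. The same held for the fibroblast (13), trophoblast (12) and muscle and liver lists (18). Nearest genes and overlaps away from the TSS are not reported here for these lists. Over the 19 lists 21 of 459 genes were covered, and 121 covered genes were in none of them.

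By the authors' gene set 127 very wide enhancers had no TSS. Of these, 85 (66.9%) were centred in a protein-coding gene, against 45.0% of the 13706 EpiLC enhancers without a TSS. A TSS lay within 50 kb of the edge in 99 (78.0%), against 63.8%, and the median distance was 19.5 kb, against 29.7 kb, measured from edges that reach further out in wider regions. Over all 228 regions the centre was in an intron in 108 (47.4%), against 34.5% of all EpiLC enhancers, and intergenic in 59 (25.9%), against 36.9%. It was within 1 kb of a GENCODE TSS in 51 (22.4%), against 25.7%, in a coding exon in 3, against 0.658%, and in another exon in 7, against 2.22%.

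Neither a TSS of the authors' gene set nor an mESC enhancer was met by 25 regions (11.0%), against 59.3% of all EpiLC enhancers. Greater width by itself makes such regions rarer. Of the 25, 20 were centred in a protein-coding gene, a count not made for all EpiLC enhancers of this kind. The longest of the 25 was chr1:7109552-7135151 (25600 bp) in an intron of Pcmtd1. Next was chr9:114521677-114538826 (17150 bp) in an intron of Trim71, a target of let-7 microRNAs that is expressed in early embryos. It was followed by chr3:95631027-95647476 (16450 bp) near Ensa, with its centre within 1 kb of a GENCODE TSS. Then came chr6:23078752-23093626 (14875 bp) in Aass, which encodes an enzyme of lysine breakdown, and chr7:130882402-130896801 (14400 bp) in Plekha1.

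Very wide enhancers lay near other EpiLC enhancers. The gap to the next EpiLC enhancer had a median of 5625 bp, against 18325 bp over all, and it was within 10 kb for 145 (63.6%), against 38.5%. Within 50 kb of a very wide enhancer there were a median of 3 other EpiLC enhancers, against 1 over all and 2 for those of 5 to 10 kb. With centres at most 50 kb apart, 46 of the 228 (20.2%) formed 21 groups, of which 18 had 2 regions, 2 had 3 and 1 had 4. The same grouping was not made for other EpiLC enhancers, so this share has no background and does not show clustering by itself.

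The group of 4 lay at Mkrn1, which encodes a RING-finger ubiquitin ligase, and covered 48.1 kb of a span of 57.3 kb, chr6:39394852-39452176. The groups of 3 lay at Tgif1 (37.3 kb of 49.0 kb) and at Irf1, an interferon regulatory factor gene (47.4 kb of 49.6 kb, with Mir7671 and Gm12216). By distance between centres the closest pairs were at Bvht and at Rbpj, which encodes the DNA-binding effector of Notch. Further pairs lay at Actn4, Zfp532 and Zmynd8. The Etv5 pair, named after its values were seen, had a gap of 196 bp and covered 58.2 kb of 58.4 kb at chr16:22385202-22443576, while mESC enhancers met it at 1 place in each region.

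**Figure D4:**
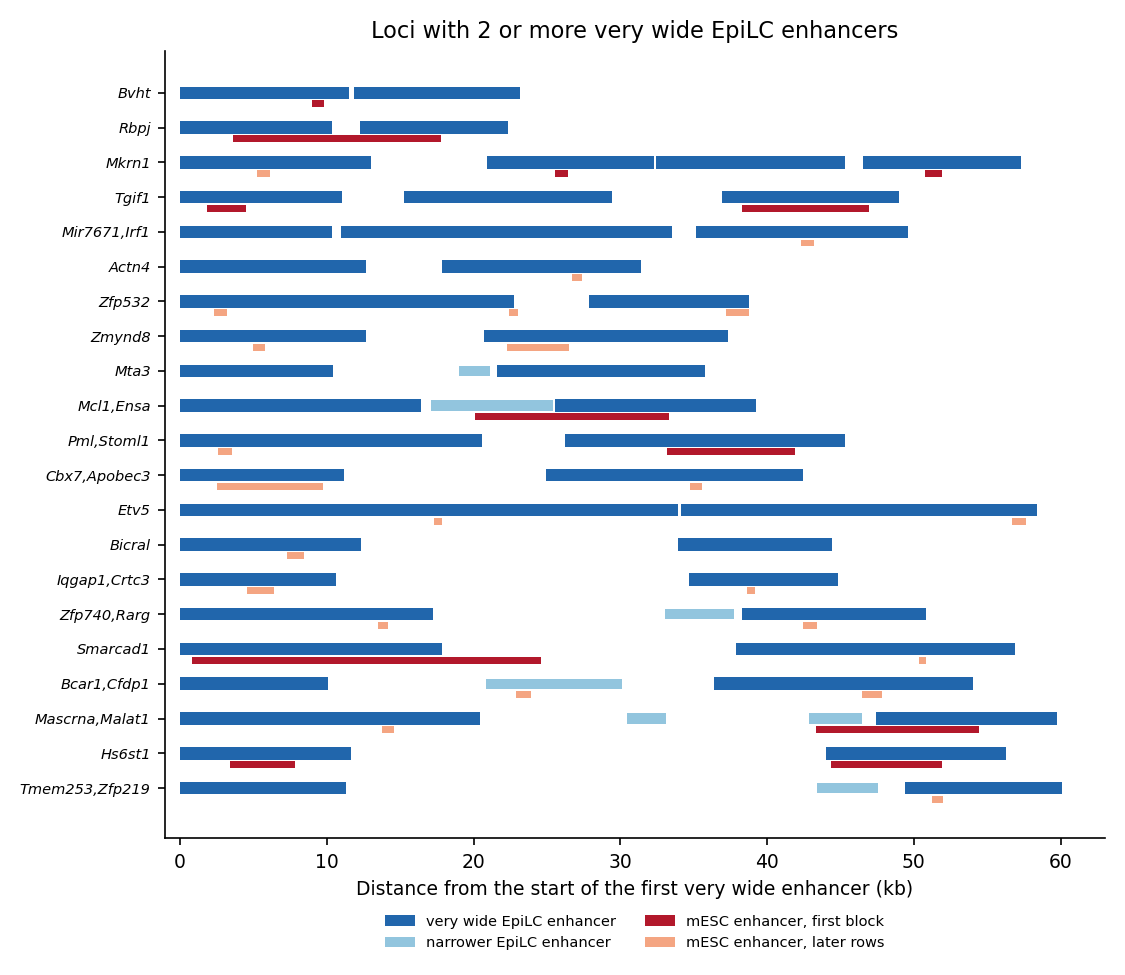
The 21 loci at which very wide EpiLC enhancers have centres at most 50 kb apart, drawn to scale in kb from the start of the first region. Dark blue bars are very wide and light blue bars narrower EpiLC enhancers; red and orange bars below them are the parts of mESC enhancers of the first block and of later rows inside the span. Etv5 shows 2 regions with almost no gap, and Mkrn1 shows 4.

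Median GC content of the very wide enhancers was 46.9%, against 47.7% over all EpiLC enhancers, and the ratio of observed to expected CpGs was 0.255, against 0.244. Among regions with a TSS the differences were larger, with a median GC of 48.0% and a CpG ratio of 0.320 in very wide enhancers, against 52.4% and 0.579 over all EpiLC enhancers with a TSS. A CpG island of at least 500 bp lay in 97 of 228 (42.5%), against 18.3%, yet islands made up 4.18% of the bases, against 7.62%. Islands went with start sites, being present in 80 of the 101 regions with a TSS and in 17 of the 127 without. Repeat-masked bases had a median share of 27.2%, against 19.7%. Over 50% was masked in 12 regions (5.26%), against 11.2% of all. The most masked were at Tex21 (76.8%), near Hspb3 (67.0%) and at chr9:7794427-7805651 (66.6%). These 3 were named after their values were seen.

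Letters of other factors known in these cells were counted on both strands as octamer ATGCAAAT, ESRRB TCAAGGTCA, KLF GGGTGTGG, OTX GGGATTA, ZIC CAGCAGG, ETS CCGGAAGT, TEAD GGAATG, AP-1 TGANTCA and TCF-LEF CATCAAAG. The first 7 letters of the octamer form the end of the OCT-SOX motif, so matches of both can overlap. OTX letters stood at 0.339 per kb in very wide enhancers, against 0.229 over all EpiLC enhancers, and ESRRB letters at 0.0469, against 0.0373. Without repeat-masked bases OTX letters stood at 0.0988, against 0.0994, and ESRRB letters at 0.0230, against 0.0243, and neither was then higher in very wide enhancers. Octamer letters stood at 0.0598 per kb, against 0.0778, and at 0.0637 without repeats, against 0.0801. In 500 bp centre windows ZIC letters were in 16.2%, against 22.5%, and TEAD letters in 26.8%, against 26.7%. The windows also held AP-1 letters in 14.0%, against 14.1%, KLF in 6.58%, against 5.03%, ETS in 1.75%, against 1.97%, and TCF-LEF in 2.63%, against 1.88%.

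**Figure D5:**
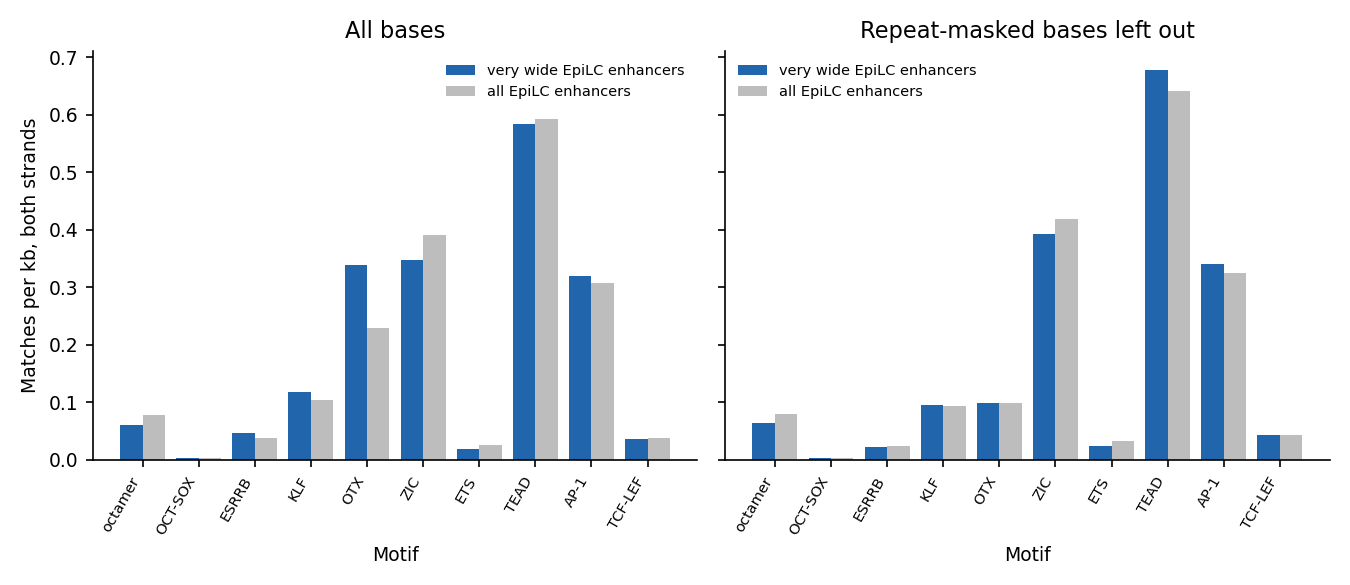
Matches per kb of 10 motifs on both strands in very wide EpiLC enhancers (blue, left of each pair) and in all EpiLC enhancers (grey), over all bases (left) and with repeat-masked bases left out (right). OTX letters stand at 0.339 against 0.229 per kb over all bases and at 0.0988 against 0.0994 without repeats.

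Within the very wide enhancers the stretches shared with mESC enhancers had higher densities of OCT-SOX, octamer, KLF and ESRRB letters than the rest. Outside repeats there were 519 kb inside mESC enhancers and 1789 kb outside. OCT-SOX had 4 matches inside and 3 outside. Octamer letters stood at 0.0828 per kb inside and 0.0581 outside, KLF letters at 0.125 and 0.0861, and ESRRB letters at 0.0366 and 0.0190. OTX letters were at 0.102 inside and 0.0978 outside, and ETS letters at 0.0173 and 0.0257. TEAD letters were at 0.686 and 0.675, ZIC letters at 0.391 and 0.392, AP-1 letters at 0.322 and 0.346, and TCF-LEF letters at 0.0366 and 0.0442. The ESRRB counts were 19 inside and 34 outside, and the ETS counts 9 and 46. These densities are descriptions of single genome sequences, and the small counts limit them. Whether the way the mESC list was defined favours some of these letters was not tested.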

How the data were processed

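The deposited tables are 3 region sets in mm10 with chromosome, start, end and strand, made by the authors from published sets and lifted over to mm10, per the series' design text; they hold 0 columns with a value per library. Bowtie2 2.3.4.1, Trimmomatic 0.38 and bedtools 2.29.2 stand in the submitters' processing notes and bear on the libraries and not on these tables. How wide intervals were joined is not given in the sources used here. Depth is therefore unknown, and signal over these regions was not analysed here.

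Starts were taken as counted from 0. In the gene table start plus 1 matched RefSeq genes in 12038 rows, against 329 for the start as written; for the enhancer tables this could not be settled, so their starts are uncertain by 1 bp. Of 24402 gene rows, 120 duplicates and 19 off or beyond a chromosome were left out. Of the 24263 kept, 23840 were named from RefSeq or GENCODE M21 by equal coordinates or a shared length of at least 0.8. The TSS was the 5′ end by strand. Overlaps needed 1 bp and were checked against bedtools 2.31.1 on simulated data. CpG islands were 200 bp windows in steps of 50 bp with at least 50% GC and a CpG ratio of at least 0.6, joined to at least 500 bp. Repeat masking was that of the reference genome. Intervals in sensitivity checks are 95% Wilson intervals (exact Poisson for TSSs per region and for motif matches per kb) and cover counting error only. For GC content the interval treats single bases of the centre windows as independent, so it is too narrow to judge the alternatives by. Tools were Python 3.11.15, pandas 2.3.3, numpy 2.4.6, scipy 1.17.1 and pysam 0.24.0.

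Regions named are the 10 longest, the 8 with most TSSs, the 10 sharing most bases with the first block of the mESC table, the 5 longest with neither a TSS nor an mESC enhancer, those next to the threshold and the 8 closest groups; genes named are list genes with a TSS covered or nearest within 50 kb. List genes that a region overlapped away from the TSS, and others marked so in the text, were named after their values were seen. The members and the gene lists were chosen with earlier results of these data known. Some genes that meet this rule are not reported here.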

Additional observations from a re-analysis of the deposited data

How the results depend on the processing

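Of 34 alternative values of results with an interval, 14 stayed inside it and 20 did not; the count of list genes, 21, has no interval and 3 alternatives, the nearest TSS within 50 kb giving 28. Requiring at least 50% of the mESC enhancer inside the region gave 69.3% for any mESC enhancer and 23.2% for the first block of the mESC table. The 500 bp centre window gave 34.2% and 19.3%, and 14.9% for later rows only. At a width over 15000 bp (68 regions) the shares were 86.8% and 42.6%, with 61.8% covering a TSS, 0.971 TSSs per region, 14.7% centred within 1 kb of a TSS, 13 list genes and 45.8% GC. At a width over 8000 bp (441 regions) they were 66.9% and 22.2%, with 36.3% covering a TSS, 0.497 TSSs per region and 38 list genes. TSSs of GENCODE protein-coding genes gave 34.6% and 0.434 per region. GC content was 46.5% in centre windows and 46.8% over whole regions. Leaving out repeat-masked bases, an alternative chosen after seeing the data, gave 0.0988 OTX and 0.0230 ESRRB matches per kb. Counting starts from 1 and leaving out gene intervals longer than any RefSeq gene changed none of the shares tried. No paired analysis was possible because the region sets have no replicates and the tables hold no value per library. The overlap shares depend on width, the lists give no error between cultures, and how broad intervals were merged is unknown.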

Other observations

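The order of rows in the EpiLC table, whose meaning is not given, was uneven for the very wide enhancers. Split into 4 parts of equal size in row order, the table held 96 of them in the first part, 106 in the second, 18 in the third and 8 in the last, with a median row of 4630 against 8288.5 over all EpiLC enhancers. Most widths in the table were multiples of 25 bp, in 94.7% of very wide enhancers and 96.7% of all. By chromosome, very wide regions were 17 of 1104 EpiLC enhancers on chromosome 1 (1.54%) and 20 of 1025 on chromosome 7 (1.95%). They were 7 of 340 on chromosome X (2.06%) and 4 of 578 on chromosome 16 (0.692%), against 228 of 16576 over all. Chromosomes 15 (1.91%) and 17 (1.96%) stood near chromosome 7. Only some chromosomes are named, the counts are small, and differences between them were not tested. One of the 8 EpiLC enhancers on chromosome Y was very wide, at Erdr1, with 62.3% of its bases repeat-masked.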
